A study of Mus musculus with 5 samples.

Results

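Macrophage-dominant spots were the capture spots of neonatal mouse heart sections in which Macrophage had the highest of 11 cell type scores and which held at least 1000 unique molecular identifiers (UMIs, each standing for 1 captured transcript). They made up 150 of the 3364 spots in 5 sections. The scores came from the study's label transfer, which gives every spot a share for each cell type of a single-nucleus reference, and a spot can hold several cells of different types. All hearts came from wild-type C57BL/6 mice operated on at postnatal day 1, either with ligation of the left anterior descending artery to cause myocardial infarction (MI) or with a sham operation. Transverse sections 10 µm thick were taken 200 µm below the suture. There was 1 sham section and 1 MI section at day 3 after surgery, and 1 sham section and 2 MI sections at day 7. Each section was 1 sample, and the study describes the 2 MI day 7 sections as independent biological replicates.

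Macrophages are phagocytes of the innate immune system. The heart holds resident macrophages from fetal life on, many of them carrying Lyve1, Timd4 or Folr2, and after an infarct monocytes that carry Ccr2 enter the wound and become further macrophages. They clear dead cells through Fc, scavenger and lectin receptors, break the cargo down in lysosomes with cathepsins, and send out chemokines and matrix proteins. Lyz2 encodes a lysozyme of myeloid cells, C1qa a chain of complement C1q, Csf1r the receptor for the growth factor that macrophages need to survive, and Cd68 a lysosomal membrane glycoprotein.

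The spots were unevenly spread over the sections. There were 26 of 544 spots at sham day 3 (4.78%, exact 95% binomial confidence interval 3.15 to 6.92%), 20 of 376 at MI day 3 (5.32%, 3.28 to 8.10%) and 70 of 960 at sham day 7 (7.29%, 5.73 to 9.12%). MI day 7 replicate 1 had 21 of 693 (3.03%, 1.89 to 4.59%), and replicate 2 had 13 of 791 (1.64%, 0.878 to 2.79%). These intervals cover counting error only, since spots of 1 section share their tissue. The share was 3.33% ± 1.86 (SD, n = 3) in MI and 6.04% ± 1.78 (SD, n = 2) in sham sections, a difference of -2.70 percentage points (exact permutation test over sections, two-sided p = 0.4, adjusted p = 0.8125 over 9 such tests). With 3 sections against 2 this test cannot go below 0.2. Leaving out 1 section moved the difference between MI and sham from -3.96 to -1.45 points. Between day 7 and day 3 the share differed by -1.06 points (exact permutation p = 0.8), and by 0.112 points without MI day 7 replicate 2.

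The choice of spots rests on the Macrophage score, so the score is given as a description. It had a mean of 63.4% in the chosen spots at sham day 3, 79.5% at MI day 3, 60.6% at sham day 7, 68.2% in MI day 7 replicate 1 and 52.8% in replicate 2, against 0.717 to 2.69% in the other spots. The score reached 0.5 or more in 18, 18, 43, 16 and 9 of them, in the same order. The closest calls inside the rule led the next type by 0.283, 11.6, 0.113, 3.27 and 0.962 percentage points, and the nearest spots outside it missed by 3.82, 0.452, 0.681, 1.15 and 0.590 points. The second-highest type was most often CM1, a cardiomyocyte class of the reference (11, 15, 26, 10 and 7 spots), with fibroblasts second in 8, 4, 21, 2 and 4 spots and endothelial cells in 6 spots of MI day 7 replicate 1.

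The label was checked against 15 macrophage markers, summed per spot in CPM (counts scaled to a total of 1000000 per spot over the genes that all sections share). The mean sum was 613 CPM at sham day 3, 13044 at MI day 3, 601 at sham day 7, 844 in MI day 7 replicate 1 and 4658 in replicate 2. The other spots of the same sections had 186, 811, 172, 281 and 341 CPM. The chosen spots therefore held 3.29, 16.1, 3.50, 3.00 and 13.7 times the marker level of their section, with MI day 3 and MI day 7 replicate 2 far above the rest. All 20 spots at MI day 3 lay above the 95th percentile of the other spots, against 14 of 26 at sham day 3, 41 of 70 at sham day 7, 12 of 21 in MI day 7 replicate 1 and 10 of 13 in replicate 2. A ranking by the marker sum alone did not always pick the same spots. Of the 26 spots with the highest sums at sham day 3, 9 were macrophage-dominant by score and 10 fibroblast-dominant, and in MI day 7 replicate 1 these were 7 and 10 of 21. At sham day 7 they were 35 and 26 of 70, at MI day 3 19 and 1 of 20, and in MI day 7 replicate 2 7 and 2 of 13, with 4 more spots dominated by epicardial cells.

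Cardiomyocyte transcripts showed that most of these spots were not pure macrophage regions. The sum of 12 cardiomyocyte genes, among them Myh6 (the main adult myosin heavy chain), was 59274 CPM at sham day 3, 65009 at sham day 7 and 63299 in MI day 7 replicate 1, against 61521, 66154 and 64212 CPM in the other spots. In these 3 sections 1 of 26, 4 of 70 and 0 of 21 spots lay below the 5th percentile of the other spots. At MI day 3 the sum was 29924 against 61216 CPM and in MI day 7 replicate 2 33872 against 64453 CPM, with 16 of 20 and 9 of 13 spots below that percentile. Macrophage markers were thus above the other spots in every section, while in both sham sections and MI day 7 replicate 1 the level of cardiomyocyte transcripts was that of the surrounding spots.

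**Figure D1:**
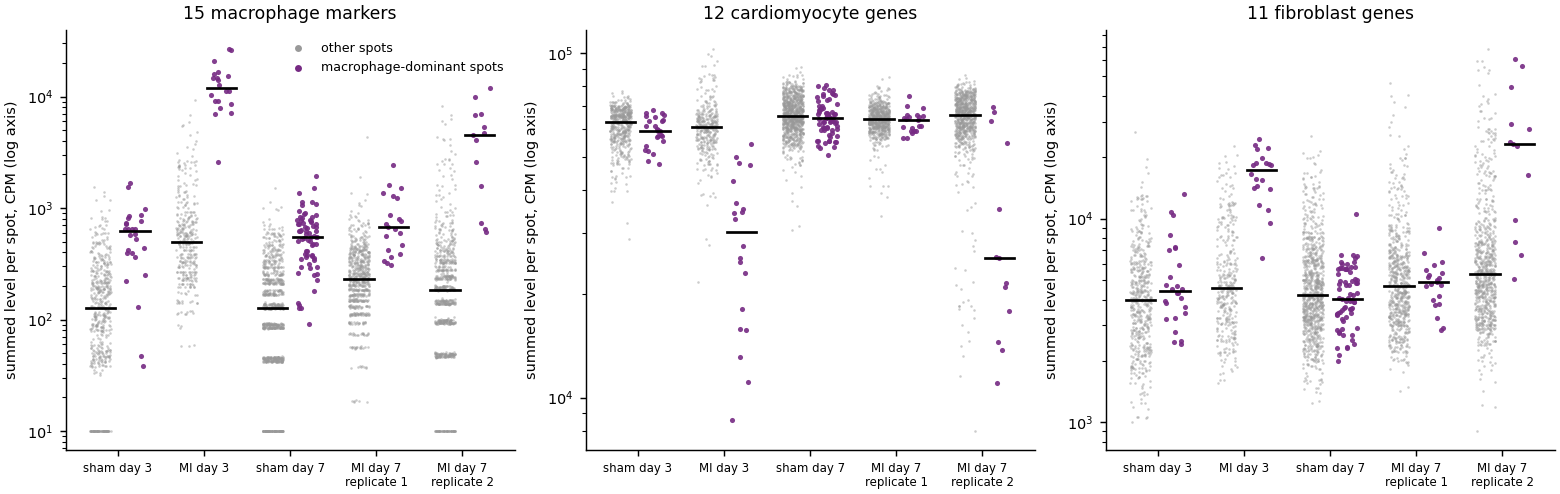
Summed CPM (log axis) per spot for 15 macrophage markers, 12 cardiomyocyte genes and 11 fibroblast genes, by section, in macrophage-dominant and other spots. Bars are medians, and sums under 10 CPM are drawn at 10. Macrophage sums of the chosen spots are highest at MI day 3 and in MI day 7 replicate 2, the sections in which their cardiomyocyte sums are lowest.

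Depth was close between chosen and other spots in 4 sections and lower in the chosen spots of MI day 7 replicate 2. Their median UMI count was 21531, 37818.5, 23804.5, 51528 and 12973 (sham day 3, MI day 3, sham day 7, MI day 7 replicates 1 and 2), against 20832, 34950, 22876, 54030 and 21037 in other spots, and it was higher in 3 of 5 sections (mean log2 ratio -0.11, exact permutation p = 0.8125). Total UMIs per section ran from 11396022 to 37492530. The share of CPM from mitochondrially encoded transcripts was 15.95% at sham day 3, 15.9% at sham day 7 and 25.1% in MI day 7 replicate 1, within 1 percentage point of the other spots (15.7%, 15.7% and 24.4%). At MI day 3 it was 4.05% against 14.3%, and in MI day 7 replicate 2 8.25% against 15.4%. These are the 2 sections with low cardiomyocyte transcripts in the chosen spots, and the part of tissue quality in that was not tested. Fewer cells of a type and less RNA per cell cannot be told apart in these data.

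The position of the spots was not used to choose them, and it differed between sections. Of all adjoining positions counted around the macrophage-dominant spots, 55.2% were held by other macrophage-dominant spots at MI day 3, against 2.43% of those around the other spots. The values were 16% and 2.76% in MI day 7 replicate 1, 14.5% and 1.36% in replicate 2, 12.8% and 4.64% at sham day 3 and 8.46% and 7.199% at sham day 7. The excess was positive in 5 of 5 sections, with a mean of 17.7 percentage points ± 20.2 (SD, n = 5), and the exact permutation test that flips signs over sections gave the smallest p that 5 sections allow (adjusted p = 0.5625). It was 26.4 points in MI and 4.72 in sham sections (exact permutation p = 0.2, the smallest possible). That difference of 21.7 points was 8.47 points without MI day 3. Without that section the mean excess over the remaining ones was 8.95 points. At sham day 7, 42 of the 70 spots had no macrophage-dominant neighbour. At MI day 3, 14 of the 20 formed 1 connected patch, and 8 of the 20 lay on the rim of the section, where a spot has fewer than 6 neighbours (40%, against 19.4% of other spots). The rim held 0 of 26 chosen spots at sham day 3 (16.6% of other spots), 9 of 70 at sham day 7 (12.7%), 1 of 21 in MI day 7 replicate 1 (14.7%) and 5 of 13 in replicate 2 (19.9%).

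**Figure D2:**
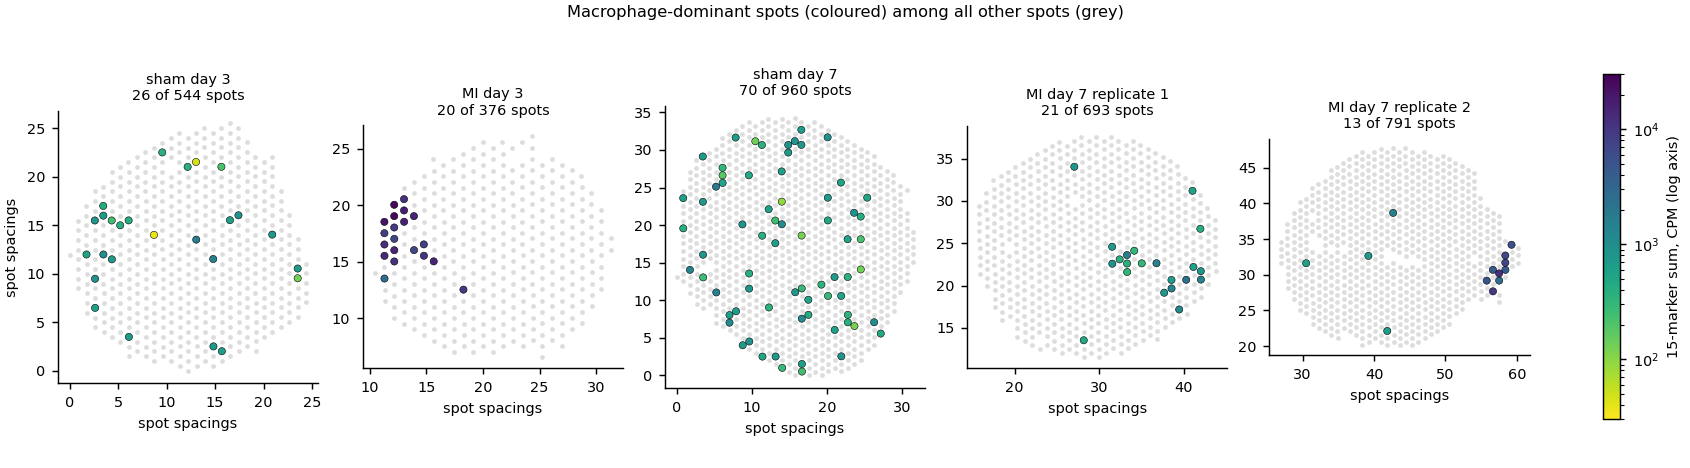
Position of macrophage-dominant spots (coloured by the summed CPM of 15 macrophage markers, log scale) among the other spots (grey) in each section, with both axes in units of the distance between neighbouring spots. Spots with fewer than 2 adjoining spots or under 1000 UMIs are not drawn. The spots at MI day 3 and 9 of 13 in MI day 7 replicate 2 sit together at 1 side of the section, while those at sham day 7 are scattered.

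Within MI day 7 replicate 2, position split the spots. Linking chosen spots that lay within 2 rings of each other on the grid left 1 group of 9 on 1 side and 4 scattered over the section. The 9 grouped spots held 1165 to 5807 CPM of Lyz2 (median 2477) and the 4 scattered ones 46.5 to 433 CPM (median 126). Their ranges did not overlap. Lgals3, which encodes galectin-3, a lectin of phagocytes, ran from 55.3 to 929 CPM in the grouped and from 0 to 49.4 CPM in the scattered spots. Spp1, which encodes osteopontin, was at 0 in all 4 scattered spots and had a median of 822 CPM in the 9 grouped ones. The cardiomyocyte sum was 11026 to 35145 CPM in the grouped spots and 54730 to 69492 CPM in the scattered ones, and Col1a1, a collagen I chain, had medians of 6193 and 731 CPM. The 4 scattered spots thus had levels near those of the sham sections, and the high means of this section came from 1 area. The grouped spots were shallower, with a median of 12095 against 19920 UMIs, and the part of depth in the difference was not tested. The same linking at MI day 3 put 19 of 20 spots into 1 group. In MI day 7 replicate 1 its largest group held 9 of 21 spots, whose Lyz2 median (165 CPM) lay below that of the other 12 (209.7 CPM).

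The 4 defining markers were read next, as descriptions. Lyz2 averaged 116 CPM at sham day 3, 7204 at MI day 3, 163 at sham day 7, 369 in MI day 7 replicate 1 and 2304 in replicate 2, against 37.5, 297, 41.4, 72.7 and 110 CPM in other spots. The 20 spots at MI day 3 ran from 825 to 17415 CPM, while the spots at sham day 7 ran from 0 to 948. C1qa averaged 82.0, 433, 51.5, 58.1 and 414 CPM, and Csf1r 56.7, 389, 42.2, 34.6 and 141 CPM. These genes were lowest in MI day 7 replicate 1 and the sham sections, by no consistent order among those 3. Cd68 averaged 9.27, 278, 10.5, 21.05 and 110 CPM, and was detected in only 4 of 26 spots at sham day 3 and 15 of 70 at sham day 7, so the label rests there on other genes. In GRCm38 coordinates Lyz2 lies at chr10:117277331-117282321, C1qa at chr4:136895917-136898803 and Cd68 at chr11:69664213-69666153.

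Sham day 3 was the only section with uncorrected UMI counts, which show how few molecules lie behind these levels. Its 26 spots held 548033 UMIs. Of these, 59 were from Lyz2 (108 CPM, exact 95% Poisson interval 82.0 to 139, against 34.5 CPM in other spots), 42 from C1qa, 31 from Csf1r and 4 from Cd68 (7.30 CPM, 1.99 to 18.7). Spp1 had 0 UMIs, for which 5.47 CPM is the level of 3 counts and 6.73 CPM the upper end of the same interval. Only counting error is covered by these intervals. They are descriptions, since the scores that chose the spots were made from the same expression. The interval of Cd68 held the other spots' 5.25 CPM.

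**Figure D3:**
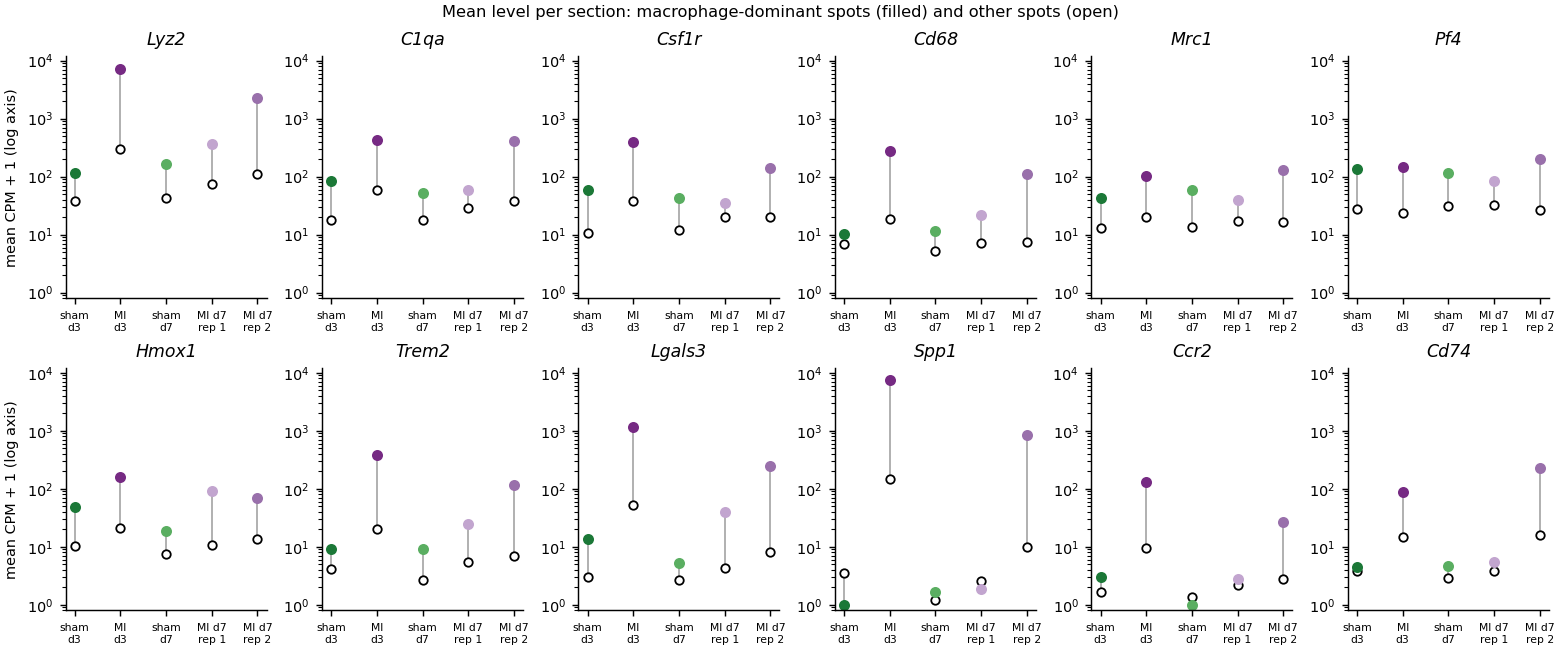
Mean CPM + 1 (log axis) of 12 genes in macrophage-dominant spots (filled) and other spots (open) of each section. Lyz2, Spp1 and Lgals3 reach 1147 to 7632 CPM in the chosen spots at MI day 3, while Pf4 and Mrc1 stay between 39.0 and 197 CPM in all 5 sections.

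Across all genes the chosen spots were compared with the others of the same section, with no test, because the scores were made from the same expression. Fold differences are on the log2(CPM + 1) scale, which understates low genes. Of 13381 genes, 30 (0.224%) were at least 2-fold higher in every section and 1 (0.00747%), Susd5, was at most 0.5 times as high in every section. Among these 30, 8 were from the 15 macrophage markers. Others were the receptors Trem2, which binds lipids and lipoproteins, Fcgr3 for antibodies and C3ar1 for complement C3a. The oxidase subunit Cybb, the signalling adaptors Tyrobp and Fcer1g, and the chemokines Ccl2 and Pf4 were also among them. At sham day 3 Trem2 rested on 4 UMIs in the chosen spots (7.30 CPM, exact Poisson interval 1.99 to 18.7). That interval held the other spots' 2.86 CPM. Lgals3 rested there on 7 UMIs, with an interval of 5.14 to 26.3 CPM, above the other spots' 1.84 CPM. Lgals3 had the highest mean log2 ratio, 3.16 ± 1.60 (SD, n = 5), from 12.8 against 2.05 CPM at sham day 3, 1147 against 51.2 at MI day 3, 4.35 against 1.62 at sham day 7, 39.4 against 3.26 in MI day 7 replicate 1 and 243 against 7.25 in replicate 2. Bex4, Rpl3l (a ribosomal protein of striated muscle) and Kitl (the ligand of the receptor Kit) were among the 8 genes with the lowest mean log2 ratios, which ran from -1.43 to -0.85. Without MI day 7 replicate 2 the means of these 3 genes were -0.60, -0.52 and -0.52.

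Among genes higher in the chosen spots of every section, Pf4 varied little between sections. This gene, for a CXC chemokine that resident macrophages also make, averaged 134.6, 144, 115, 84.1 and 197 CPM against 22.8 to 30.9 CPM in other spots. Mrc1, the mannose receptor, averaged 41.1, 102, 57.2, 39.0 and 131 CPM against 11.8 to 18.9. Mrc1 was highest at MI day 3 and in MI day 7 replicate 2. Hmox1, which breaks down haem, averaged 47.6, 158, 18.0, 91.9 and 69.4 CPM against 6.38 to 20.1. The 7 measured genes often taken for resident cardiac macrophages summed to 192, 438, 206, 157 and 535 CPM, highest at MI day 3 and in MI day 7 replicate 2, with F13a1 at 9.15, 68.5, 35.5, 23.2 and 40.9 CPM, Folr2 at 1.32, 32.4, 6.75, 16.03 and 33.3 CPM and Lyve1 at 8.40, 7.01, 19.3, 7.999 and 12.1 CPM. Lyve1 was highest at sham day 7 instead. The other genes in the sum were Cd163, Gas6, Maf and Igf1. Of the 7 measured genes, 0 were 2-fold higher in every section and 4 were higher in every section, which held for 5.75% of all genes. Further genes of this list were not measured in every section. Of these, Cbr2 was highest at sham day 7 (26.9 CPM). Vsig4 and Timd4 were highest in MI day 7 replicate 2 (16.8 and 4.25 CPM, from 2 and 1 spots).

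Other programmes set the sections apart. Of 16 lysosomal genes, 15 were at least 2-fold higher than in other spots at MI day 3 and 13 in MI day 7 replicate 2, against 2 at sham day 3 and 0 in the remaining sections. The share of all genes past that ratio also differed, at 14.2% and 14% in the first 2 of these sections, 4.19% at sham day 3, 1.35% at sham day 7 and 1.76% in MI day 7 replicate 1. Their summed level was 16117 CPM at MI day 3 and 7282 in MI day 7 replicate 2, and 2570, 2363 and 2786 in the rest. The cathepsin Ctsb averaged 3249 CPM at MI day 3, 1454 in MI day 7 replicate 2 and 389 to 479 elsewhere. Spp1 averaged 7632 CPM at MI day 3 and 834 in MI day 7 replicate 2, where it was found in 8 of 13 spots and 1 spot held 58.5% of it, and 0, 0.636 and 0.897 CPM in the other sections. Trem2 averaged 8.02, 386, 8.05, 23.9 and 114 CPM, in the order sham day 3, MI day 3, sham day 7 and MI day 7 replicates 1 and 2. Apoe, a lipid carrier, averaged 402, 4094, 177, 283 and 2748 CPM.

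Monocyte and antigen presentation genes followed the same split. Ccr2, the receptor that brings monocytes into tissue, averaged 132 CPM at MI day 3 and 25.5 in MI day 7 replicate 2, and 2.01, 0 and 1.80 CPM elsewhere. MHC class II genes present peptides to T cells. Cd74, their invariant chain, averaged 229 CPM in MI day 7 replicate 2, 88.5 at MI day 3 and 3.48 to 4.40 in the other 3 sections. The MHC class II list summed to 475 and 268 CPM in these 2 sections and to 6.81 to 8.90 CPM in the others. Ccl6 and Ccl9, CC chemokines of myeloid cells, averaged 489 and 351 CPM at MI day 3 and 374 and 135 CPM in MI day 7 replicate 2. Ccl2, which attracts monocytes, was highest in MI day 7 replicate 2 (222 CPM, 55.3% of it in 1 spot) and at 9.83 to 31.1 CPM in the other sections.

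Transcripts of other cell types moved with these sections. The 11 fibroblast genes summed to 16669 CPM at MI day 3 and 25690 in MI day 7 replicate 2, against 5889 and 7724 CPM in other spots, and to 4320 to 5302 CPM in the other 3 sections. Col1a1 averaged 817, 4234, 488, 570 and 6315 CPM. The 3 measured neutrophil genes summed to 321 CPM in MI day 7 replicate 2 against 29.7 CPM in its other spots, and to 30.4, 100.4, 35.2 and 13.2 CPM in the other sections (25.8, 81.6, 8.48 and 8.57 CPM in other spots). Of these, S100a8 averaged 4.95, 43.7, 14.5, 7.07 and 133 CPM. Other neutrophil genes of the list were not measured in every section. In MI day 7 replicate 2 Camp, Ngp and Ltf were at 0 CPM in the chosen spots, against 1.84, 1.16 and 1.03 CPM in other spots. Retnlg was higher there (12.1 against 1.18 CPM), from 1 spot. Haemoglobin and other red cell genes were lower than in other spots in 4 sections (median log2 ratio -1.26 to -0.40) and higher in MI day 7 replicate 2 (0.89), where 1 spot held 79.5% of Hba-a1. The mast cell protease Cma1 was found in 1 of the 13 chosen spots of that section and in 2.85% of its other spots. The part of these other cells in the differences between sections was not tested.

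**Figure D4:**
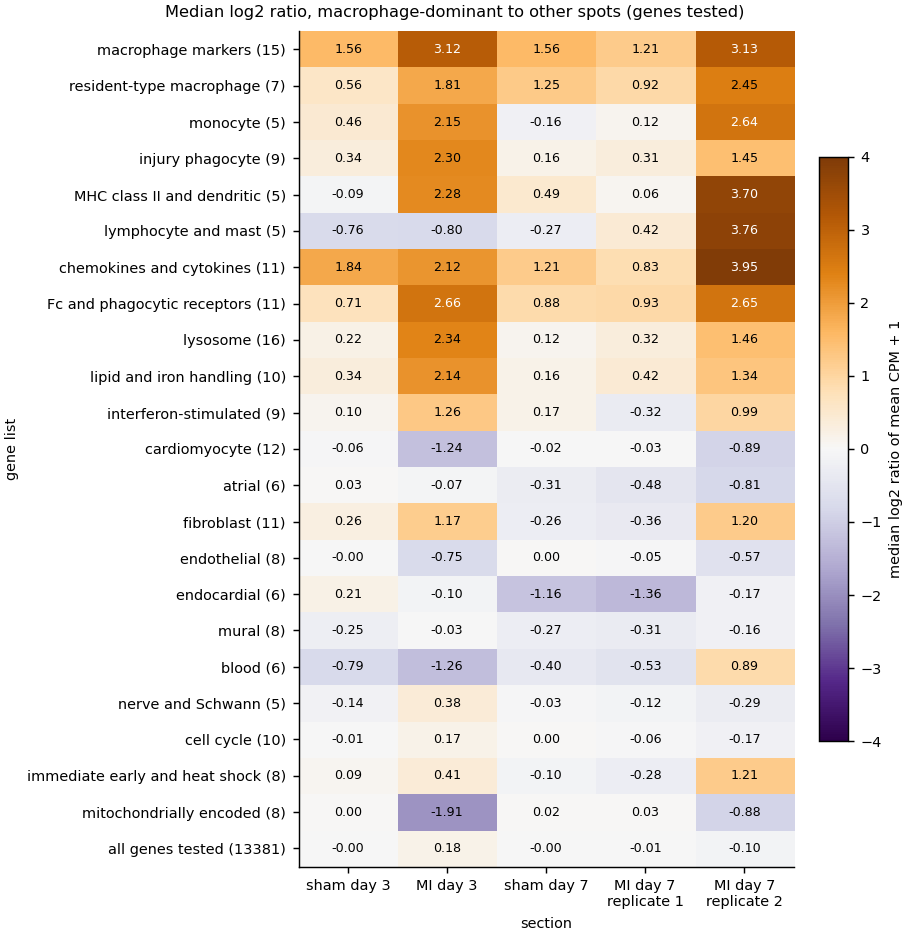
Median log2 ratio of macrophage-dominant to other spots for each gene list with at least 5 measured genes (rows) in each section (columns), with the number of genes in brackets. Macrophage markers are positive in all 5 sections (1.21 to 3.13), and lysosomal, MHC class II and fibroblast lists are above 1 at MI day 3 and in MI day 7 replicate 2 only.

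MI was compared with sham within the chosen spots by limma on log2(mean CPM + 1) of the 5 section profiles, with operation and day as terms. Of 13029 genes tested, 0 passed an adjusted p of 0.05 (0%). Before adjustment, p was under 0.05 for 466 genes that were higher and 199 that were lower. The design left 2 residual degrees of freedom, and the 2 MI day 7 sections differed widely. The same limma test called 737 genes higher and 283 lower once replicate 1 was left out. Leaving out replicate 2 gave 1 call, Lgals3, which was higher. Those fits have 1 residual degree of freedom and lean on the spread shared over genes. Sham day 3 held raw counts and the other sections corrected ones, in this comparison and in that of the days. The part of this in the differences was not tested. Sham day 3 and MI day 7 replicate 1 expressed the female-specific Xist and the other 3 sections the Y-linked Ddx3y, so sex also varied within groups, and its part was not tested.

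Several phagocyte genes stood among the largest differences. Lgals3 was higher by 5.14 ± 0.74 (SE) on the log2 scale in MI (limma adjusted p = 0.832, n = 3 against 2), and all 3 MI sections (39.4 to 1147 CPM) lay above both sham sections (4.35 and 12.8 CPM). Spp1 differed by 8.16 ± 2.38, a value set by MI day 3 and MI day 7 replicate 2, since replicate 1 was at 0.897 CPM beside 0 and 0.636 CPM in sham. Lyz2 was higher by 3.97 ± 0.88 and Cd68 by 3.25 ± 0.77 (limma adjusted p = 0.887 for both), again with no overlap between the groups. Leaving out 1 section moved these differences between 2.49 and 5.94 for Lyz2 and between 2.11 and 4.77 for Cd68, lowest without sham day 3 or MI day 3 and highest without sham day 7. Spp1 differed by 4.60 without sham day 3 and by 12.9 without sham day 7. C1qa (1.93 ± 0.69) and Csf1r (1.59 ± 0.63) overlapped, because MI day 7 replicate 1 lay within or below the sham range. With 1 section left out they ran from 1.28 (without MI day 7 replicate 2) to 2.69 (without replicate 1) and from 0.718 (without sham day 3 or MI day 3) to 2.76 (without sham day 7). C3, the central complement protein, differed by 5.61 ± 2.02 and was highest in MI day 7 replicate 2 (754 CPM). As for Spp1, this value was set by MI day 3 and MI day 7 replicate 2. Replicate 1 was at 0.905 CPM, from 1 of 21 spots, beside 0 and 0.632 CPM in sham.

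MI sections lay all above sham for 1088 genes (8.35%) and all below for 1481 (11.4%). Against that background, 6 of 15 macrophage markers, 8 of 16 lysosomal genes, 7 of 11 Fc and phagocytic receptors and 7 of 9 measured genes of a list for injury phagocytes were above, and 0 of each below. Of other immune lists, those above were 2 of 11 chemokines, 2 of 5 MHC class II genes, 1 of 7 resident-type macrophage genes, 0 of 5 monocyte genes and 0 of 3 neutrophil genes. Among fibroblast genes 3 of 11 were above. Among cardiomyocyte genes 3 of 12 and among endothelial genes 3 of 8 were below. With median-of-ratios scaling the split over all genes was 1431 above and 1397 below. Further named genes that were higher in MI were the lectin receptor Clec4a2 (4.14 ± 1.15, 113.6 CPM at MI day 3) and the alarmin Il33 (4.05 ± 1.33). Il33 was at 1.78 CPM in MI day 7 replicate 1, from 2 of 21 spots, beside 0 and 0.658 CPM in sham. On the lower side stood the transcriptional coregulator Cited1 (-2.78 ± 1.11) and the syntrophin Sntb1 (-2.34 ± 0.67), at 105.6 and 60.0 CPM in sham day 3 and 17.1 and 4.19 CPM at MI day 3. Leaving out sham day 3 or MI day 3 gave 2.12 for Clec4a2 and -1.42 for Sntb1, and leaving out sham day 7 gave 6.84 and -3.55. Cited1 was at -1.63 without MI day 7 replicate 2.

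Whether these differences exceeded those of the surrounding tissue was asked by fitting the same model to the difference between chosen and other spots. Again 0 of 13381 genes passed (0%, limma), while unadjusted p-values under 0.05 went to 336 higher and 169 lower genes. Lyz2 exceeded the other spots by 2.08 ± 0.53 log2 units more in MI than in sham, Cd68 by 2.36 ± 0.74 and Trem2 by 2.14 ± 0.73 (limma adjusted p = 0.964 for each). Lyz2 and Cd68 ran from 1.40 and 1.62 without sham day 3 or MI day 3 to 2.99 and 3.34 without sham day 7. For C1qa (0.70 ± 0.57) and Csf1r (0.39 ± 0.54) the value was within 2 standard errors of 0 (0.0850 for C1qa without MI day 7 replicate 2), and for Csf1r its sign turned when sham day 3, MI day 3 or MI day 7 replicate 2 was left out (-0.0168, -0.0168 and -0.0468). Leaving out single sections gave limma calls for 526 higher and 414 lower genes (MI day 7 replicate 1 left out), 17 and 5 (replicate 2) and 1 and 1 (sham day 7).

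Day 7 was compared with day 3 by the same fits. In the chosen spots 0 of 13029 genes passed (0%, limma), while unadjusted p-values under 0.05 went to 113 higher and 364 lower genes, or to 316 and 158 with median-of-ratios scaling. The median log2 difference of all genes was -0.31 with CPM and -0.07 with that scaling, so differences are best read against it. All 3 day 7 sections lay above both day 3 sections for 432 genes (3.32%) and below for 2390 (18.3%), or 1003 and 1351 with the other scaling. Ckmt2, the mitochondrial creatine kinase of striated muscle, was higher by 2.70 ± 0.41 (limma adjusted p = 0.888), from 203 and 54.3 CPM at day 3 to 726, 697 and 455 CPM at day 7. Other spots had 259 and 173 CPM at day 3 and 699 to 723 at day 7, so this gene was higher at day 7 there as well. The chosen spots did not simply follow their section. They lay below the other spots at MI day 3 (54.3 against 173 CPM) and in MI day 7 replicate 2 (455 CPM). Lower genes were the atrial myosin light chain Myl7 (-4.22 ± 0.93) and the calponin Cnn1 of smooth muscle (-3.70 ± 0.88), at -2.85 and -2.21 without MI day 3.

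Of 10 cell cycle genes, 8 were below both day 3 sections in all day 7 sections, with a median difference of -0.84, beside 18.3% of all genes. In their difference from other spots 0 of the 10 lay below (11.2% of all genes) and the median was -0.10. Mki67, a marker of cycling cells, averaged 59.4 and 123 CPM at day 3 and 55.6, 21.3 and 37.1 CPM at day 7, while other spots had 66.5 and 70.9 CPM at day 3 and 31.2 to 55.7 CPM at day 7. Of 9 interferon-stimulated genes 4 lay below, and 2 of 9 did in the difference from other spots. Ifi27l2a was the most different of them (-3.25 ± 0.90), with 24.9 and 587 CPM at day 3 and 8.75 to 23.7 CPM at day 7. Its difference was -0.59 without MI day 3 and -5.24 without either sham section. Lyz2 (-1.48 ± 0.88), C1qa (-1.12 ± 0.69) and Trem2 (-1.63 ± 0.77) overlapped between the days (limma adjusted p = 0.888). From sham day 3 to sham day 7 Lyz2 went from 116 to 163 CPM, Trem2 from 8.02 to 8.05 CPM and C1qa from 82.0 to 51.5 CPM. The negative values of Lyz2 and Trem2 thus came from the MI sections. For the difference between chosen and other spots, 0 of 13381 genes passed (0%, limma), and the unadjusted p was under 0.05 for 83 higher and 109 lower genes. Leaving out MI day 7 replicate 1 gave 5 limma calls higher and 7 lower at day 7 in the chosen spots, and 4 higher in their difference from other spots. Leaving out replicate 2 gave 11 higher and 37 lower in that difference, and without either sham section 1 higher.

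Spots beside the chosen ones were examined because the rule did not choose them. Spots touching a macrophage-dominant spot were compared with spots beyond the second ring around them, with section as a block. Of 13358 genes 0 passed (0%, limma), though unadjusted p-values were under 0.05 for 314 higher and 382 lower genes. Neighbours were above distant spots in every section for 289 genes (2.16%) and below for 652 (4.88%). Ccl9 (1.52 ± 0.48), Ccl2 (1.41 ± 0.50), Lyz2 (1.38 ± 0.48) and Pf4 (0.64 ± 0.21) were higher beside the chosen spots in 5 of 5 sections (limma adjusted p = 0.718 for each). Without MI day 7 replicate 2 these differences were 0.99, 0.71, 0.86 and 0.38, in the same order. Of the 15 macrophage markers 1 and of the 11 chemokines 3 were higher in every section. The median log2 ratio of the 15 markers, neighbours to distant spots, was 2.18 at MI day 3 and 2.14 in MI day 7 replicate 2. It was 0.24 at sham day 3, -0.27 at sham day 7 and -0.24 in MI day 7 replicate 1.

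The size of that gradient differed between sections. At MI day 3 Lyz2 averaged 7204 CPM in the chosen spots, 1291 in the first ring, 496 in the second and 173 beyond, and in MI day 7 replicate 2 2304, 661, 265 and 58.7 CPM. Both sections thus had a graded course over 2 rings. At sham day 3 the values were 116, 41.1, 38.8 and 35.1 CPM and at sham day 7 163, 40.5, 43.3 and 40.1 CPM. For Lyz2 that is a step within 1 spot and a level course after it. The sum of the 15 macrophage markers rose outward at sham day 7 (158, 170 and 189 CPM in the first ring, the second and beyond). At sham day 3 this sum fell (213, 190 and 173 CPM). In MI day 7 replicate 1 Lyz2 was at 369, 90.7, 53.6 and 73.3 CPM, lowest in the second ring. The fibroblast sum followed at MI day 3 (16669, 11932, 7876 and 5054 CPM) and in MI day 7 replicate 2 (25690, 19952, 13332 and 6374 CPM). The cardiomyocyte sum at MI day 3 was 29924 CPM in the chosen spots and 59288 already in the first ring, while in MI day 7 replicate 2 it was 33872, 47122, 56492 and 66367 CPM. Nppa, the natriuretic peptide of atrial and stressed ventricular cardiomyocytes, had its highest level at MI day 3 in the second ring (20105 CPM, against 5138 in the chosen spots, 15252 in the first ring and 6442 beyond). RNA that spreads from a spot to its neighbours on the slide would also grade with distance, and its part was not tested.

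**Figure D5:**
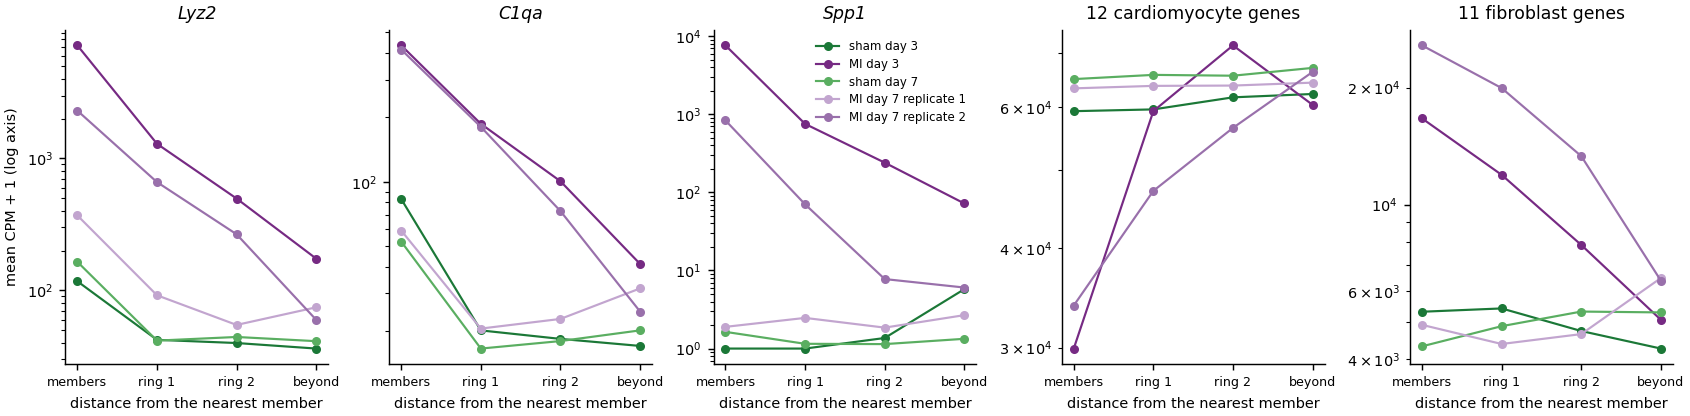
Mean CPM + 1 (log axis) of Lyz2, C1qa, Spp1 and the summed cardiomyocyte and fibroblast genes in macrophage-dominant spots, the first and second ring of spots around them, and spots beyond, 1 line per section. Lyz2 goes from 7204 to 173 CPM at MI day 3 and from 2304 to 58.7 CPM in MI day 7 replicate 2, and levels off after the first ring in the sham sections.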

How the data were processed

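The authors sequenced Visium libraries and aligned them to mm10 (GRCm38) with Space Ranger (version not given in the sources used here), and made the tables with Seurat. The deposited values were raw UMI counts for sham day 3 and sctransform-corrected, depth-adjusted counts (a score, not raw counts) for the other 4 sections, so no count model was used. Deposited spot tables held raw UMI totals, position and label-transfer fractions for 11 cell types. Corrected tables list fewer genes, and 53 of 251 genes in 26 lists were not in every table.

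Each spot was scaled to CPM over 13711 shared genes, and spots were averaged per section. Groups came from the labels. Profiles were tested with limma 3.58.1 (trend, R 4.3.3) on log2(CPM + 1), for genes at 1 CPM or more in at least 2 profiles, with Benjamini-Hochberg adjustment. Section values used exact permutation tests. P-values measure only the spread between sections. The test was checked on simulated data. Spot barcodes name grid positions: 897 of 1948 occurred in more than 1 section. Raw UMI totals per section set the precision.

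The spots and lists were chosen with earlier results of these data known. Named genes were all list genes, the 15 highest and 8 lowest mean ratios to other spots (same sign in every section, at 20 CPM or more), and the 8 largest differences each way per test among genes at 20 CPM or more whose groups did not overlap; mitochondrially encoded and sex-linked genes were left out of the ranking. Susd5, Xist and Ddx3y were named after their values were seen. Coordinates are from GENCODE M21. Alternatives were another scaling, pseudocount, low-value filter, score minimum, sums of spots, leaving out each section and, added after seeing the data, other UMI minimums. Results for some genes that met these rules are not reported here.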

Additional observations from a re-analysis of the deposited data

Results flagged for a closer look

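In the contrast of macrophage-dominant with other spots, 12 genes were marked because the chosen spots lay above the other spots in every section of 1 group and below them in every section of the other. These 12 need not be all genes that met this rule, and the share of all genes that did is not given here. This difference in direction was not tested on its own; in limma no gene passed for either contrast (adjusted p = 0.964 for MI against sham and 0.999 for day 7 against day 3). Higher relative to other spots in MI sections and lower in sham were Trbc2, a T cell receptor constant chain (difference 3.74 log2 units), Il33 (3.14) and Tnfaip6 (3.06). Trbc2 was found in 2 of 20 spots at MI day 3, 1 of 21 in MI day 7 replicate 1 and 3 of 13 in replicate 2. It was found in 0 chosen spots of both sham sections. Il33 was found in 2 of 21 spots of MI day 7 replicate 1. In MI day 7 replicate 2, 1 spot held 88.5% of Trbc2 and 81.7% of Tnfaip6. Without that section the differences were 2.70 for Trbc2 and 2.08 for Tnfaip6, and without sham day 7 Tnfaip6 was at 1.06. The reverse held for Cited1 (-2.50), Gpat3 (-2.24) and Krit1 (-1.74). Higher at day 7 and lower at day 3 were Cstdc5 (2.94), Ccn3 (2.72) and Meox2 (1.35). Ccn3 was listed at 0 in all 20 spots at MI day 3, and its difference was 0.288 without that section and 4.55 without either sham section. Cstdc5 at sham day 7 came from 2 of 70 spots, 1 of which held 92.2% of it. The reverse direction over time held for Tnni2 (-2.62), Ndst2 (-2.41) and Pex16 (-1.99). Cited1, Gpat3, Krit1, Tnni2, Ndst2 and Pex16 were listed at 0 CPM in the 13 chosen spots of MI day 7 replicate 2. Without that section their differences were -1.28, -1.26, -0.48, -2.16, -1.60 and -1.02. Krit1 was also at -0.40 without sham day 7, and Pex16 at -0.91 without MI day 3.

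A further set of list genes was left out of all tests because at least 1 section's table does not list them, and some were high in the chosen spots of MI sections. Gpnmb, a glycoprotein of lipid-laden phagocytes, averaged 1253 CPM at MI day 3 and 231 CPM in MI day 7 replicate 2, against 4.33 CPM at sham day 3 and 7.83 CPM in MI day 7 replicate 1. The macrophage elastase Mmp12 averaged 368 CPM at MI day 3 and 160 CPM in MI day 7 replicate 2, and was found in 15 of 20 and 4 of 13 spots. At MI day 3 the chemokine Ccl3 averaged 23.9 CPM and the monocyte gene Chil3 23.5 CPM. In MI day 7 replicate 2 the scavenger receptor Marco averaged 45.5 CPM, the mast cell protease Cpa3 43.3 CPM and the chemokine Ccl8 33.5 CPM, the last 2 from 1 spot each. At sham day 3, whose table lists these genes, Mmp12, Chil3, Marco, Cpa3 and Ccl8 were at 0 UMIs in the chosen spots, where 3 counts would be 5.47 CPM.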

How the results depend on the processing

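Counts of genes called by limma changed with the sections and the score minimum. Requiring a Macrophage score of at least 0.5 leaves 9 spots in MI day 7 replicate 2, which drops that section, so that 2 choices change at once. MI against sham then gave 79 genes higher and 5 lower, and day 7 against day 3 gave 19 and 124. Leaving out 1 section gave 0 to 737 higher and 0 to 283 lower for MI, 0 to 5 and 0 to 7 for day 7, and in the contrast with other spots 0 to 526 and 0 to 414 for MI and 0 to 11 and 0 to 37 for day 7. With 4 sections 1 residual degree of freedom remains, and limma then added 2.12 to 17.6 prior degrees from the spread shared over genes in the chosen spots (17.6 without MI day 7 replicate 1, against 7.12 with all sections). At the stricter score the prior was infinite there, and in the contrasts with 1 section left out it was 39.1 or more. Genes at least 2-fold higher in every section numbered 30 to 57 with 1 section left out (48 without sham day 3, 57 without sham day 7, 54 without MI day 7 replicate 1) and 29 with median-of-ratios scaling or a filter of 10 CPM. Those at most 0.5 times numbered 1 to 10 with 1 section left out, 14 with a pseudocount of 0.25, 0 with a filter of 10 CPM and 7 at the stricter score. Signs turned for C1qa in the MI contrast with other spots (-0.10 at the stricter score) and for Csf1r (-0.091 there, and -0.0468 to 0.953 without single sections, with -0.0168 without sham day 3 and without MI day 3). The day difference in share ranged from -2.71 to 0.112 points, the log2 UMI ratio from -0.165 to 0.0376 and the log2 ratio of detected genes from -0.0321 to 0.0547. Of the other values, 1385 for single genes and 161 for summaries kept their direction and side of the threshold, and 65 for single genes moved past it. No paired analysis was possible because the groups share fewer than 2 replicate numbers. Neighbour tests gave 0 calls under every alternative run.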

Other observations

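The 8 measured mural cell genes summed to 840 to 1219 CPM in the macrophage-dominant spots and to 942 to 1167 CPM in other spots, with 2 to 4 of the 8 higher in each section, beside 6179 to 7972 of all 13381 genes. Among them Pdgfrb, a growth factor receptor, averaged 178 against 72.9 CPM in MI day 7 replicate 2, where the median log2 ratio of the list was -0.16. Endothelial genes were lower than in other spots where cardiomyocyte genes were, with Cldn5, a tight junction protein, at 18.3 against 74.0 CPM at MI day 3 and 46.5 against 77.7 CPM in MI day 7 replicate 2, and at 74.5 to 106 CPM in the other sections. The endocardial marker Npr3 was listed at 0.600 to 16.9 CPM in the chosen spots and 5.54 to 16.1 CPM in the others.

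The macrophage-dominant spots held 48.2% of all macrophage marker CPM summed over the spots of MI day 3, 21.6% at sham day 7, 18.7% in MI day 7 replicate 2, 14.2% at sham day 3 and 8.64% in MI day 7 replicate 1. In each of the 5 sections more of the marker CPM therefore lay in spots that another cell type dominated.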
